A study of Rattus norvegicus with 8 samples.

Results

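A set of 10 genes of the VEGF and angiopoietin systems were examined in the Achilles tendon of the rat after a bout of running. The genes were Vegfa, Vegfb, Vegfc, Flt1, Kdr, Nrp1, Angpt1, Angpt2, Tek and Tie1, chosen by symbol, and all 10 were found among the 15590 genes of the deposited table and were among the 13863 genes tested. The right Achilles tendons came from male wild-type Sprague-Dawley (SD) rats 8 to 10 weeks old. In the 0 h p.r. (post-running) group, 4 tendons were taken right after a single uphill treadmill run of 1 h, and in the naïve control (NC) group 4 tendons came from rats that kept their normal cage activity. According to the methods, controls of the single-run experiment were killed together with a 12-hour group, while the labels say no more than that both groups were killed at once, so that hour of the day and running cannot be told apart. The labels do not say whether each library came from 1 rat, and p-values measure the spread between these libraries only. Polyadenylated RNA of the whole tissue was sequenced, and levels are given in FPKM, fragments per kilobase of a gene's transcript, scaled by library, which can be compared between genes. In such bulk tissue, fewer cells of a type and less RNA per cell cannot be told apart.

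VEGF ligands are secreted proteins that bind receptor tyrosine kinases on endothelial cells, the cells that line vessels. Kdr (VEGFR2) carries most of the growth and permeability signal of Vegfa, Flt1 (VEGFR1) binds Vegfa and Vegfb tightly and acts largely as a decoy, and Nrp1 (neuropilin 1) is a co-receptor that presents Vegfa to Kdr. Angpt1, made by mural and stromal cells, activates the endothelial receptor Tek (Tie2) and stabilizes vessels, whereas Angpt2, released by endothelium, can act as its antagonist, and Tie1 is an orphan partner of Tek. Tendon is a sparsely vascularized tissue whose vessels run mainly in the sheaths and between the fascicles.

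Of the 10 genes, 4 had libraries of NC and 0 h p.r. that lay wholly apart, and their promoters are shown because their levels differed in opposite directions. The windows are the 250 bases before the annotated start, read 5′ to 3′ on the gene's strand from RefSeq on build GRCr8, which is not the build of the expression table (Rnor_6.0). Capitals mark GGGCGG on either strand, the core bound by the SP and KLF factors. The windows lie at chr9:22452604-22452853 (plus strand) for Vegfa, chr16:44560888-44561137 (minus strand) for Vegfc, chr1:213607153-213607402 (minus strand) for Vegfb and chr19:73256307-73256556 (plus strand) for Nrp1.
Vegfa: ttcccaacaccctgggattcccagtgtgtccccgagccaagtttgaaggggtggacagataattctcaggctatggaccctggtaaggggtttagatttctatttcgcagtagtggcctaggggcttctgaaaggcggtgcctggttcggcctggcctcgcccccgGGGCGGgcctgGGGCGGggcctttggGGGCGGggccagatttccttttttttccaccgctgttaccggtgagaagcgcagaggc
Vegfc: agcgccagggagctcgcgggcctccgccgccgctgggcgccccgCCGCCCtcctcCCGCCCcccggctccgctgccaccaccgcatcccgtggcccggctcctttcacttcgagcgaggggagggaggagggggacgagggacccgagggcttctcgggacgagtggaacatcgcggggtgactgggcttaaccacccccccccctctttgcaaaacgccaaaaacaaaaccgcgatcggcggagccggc
Vegfb: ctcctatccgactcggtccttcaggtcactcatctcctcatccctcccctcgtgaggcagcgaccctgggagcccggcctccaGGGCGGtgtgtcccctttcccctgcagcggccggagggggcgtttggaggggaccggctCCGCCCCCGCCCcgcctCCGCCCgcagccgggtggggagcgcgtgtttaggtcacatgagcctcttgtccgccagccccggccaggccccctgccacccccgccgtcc
Nrp1: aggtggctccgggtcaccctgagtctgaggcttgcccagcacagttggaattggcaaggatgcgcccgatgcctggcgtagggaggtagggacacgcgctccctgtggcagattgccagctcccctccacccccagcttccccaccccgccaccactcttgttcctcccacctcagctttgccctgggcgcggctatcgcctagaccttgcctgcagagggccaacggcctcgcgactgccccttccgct

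The Vegfa, Vegfc and Vegfb windows held 3, 2 and 4 matches to GGGCGG, and the Nrp1 window held 0. Promoter windows were matched for 7 of the 10 genes (also Flt1, Kdr and Tie1), with a second window for Vegfa, and Angpt1, Angpt2 and Tek had no entry. At least 1 match to GGGCGG occurred for 6 of the 7 genes, against 30.5% of 33469 rat promoter windows of this length. Here and below the 7 are counted by gene and the shares by window. The second Vegfa window held 0 matches to GGGCGG. Both strands were also searched for ACGTG (hypoxia response core), TGANTCA (AP-1), TGTTTAC (FOX) and GGAAGT (ETS). The first 3 of these were in none of the 7 genes' windows, against 16.6%, 6.34% and 3.21% of all windows, and GGAAGT was in those of 3 genes (Flt1, Kdr and Tie1), against 19.2%. No match to one motif overlapped a match to another in these windows. The GC content of the 8 windows ranged from 56.0% to 73.2%, above the median of 51.2% over all windows. A match describes letters, not a bound site, and the data hold no measure of binding.

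Across libraries, 11350560 to 17897056 reads were recovered. NC replicate 2 was the shallowest, and 13 mitochondrial genes took 31.1% of its FPKM against 16.3% to 21.9% in the others; it was the lowest control for 5 of the 10 genes. Pearson's r across genes was 0.951 to 0.974 within NC, 0.921 to 0.969 within 0 h p.r. and 0.918 to 0.958 between groups. 0 h p.r. replicate 4 was lowest of its group for 7 of the 10 genes, and replicate 3 was highest for 7. All 8 tenocyte markers were present in the tissue and 0 were called in limma or voom (1 at an unadjusted p under 0.05), with Comp (0.67) and Scx (0.48) the largest differences and Col1a1 at 2380 FPKM in NC. Adipocyte markers were lower after running in 8 of 8, with 5 called past both thresholds, against 2.7% of all tested genes (6 in voom, 1 to 6 as each library was left out: 1 when that was NC replicate 1 or 2 or 0 h p.r. replicate 2 or 3, and 2 when it was NC replicate 3 or 0 h p.r. replicate 1), and their mean log2 level was 7.36 to 8.58 in NC and 5.34 to 6.89 in 0 h p.r. (summed 3035 to 6072 and 1007 to 2222 FPKM), the smallest adjusted p being that of Retn (-2.14, adjusted p = 0.0117), followed by Cidec (-2.41), Lep (-2.37) and Cfd (-1.70). Of the bone and cartilage markers, the 7 that were not called were all higher after running. Phex, the 1 gene called, reached the level filter through the running libraries alone and is not counted. The list's mean log2 level, which includes Phex, was 1.16 to 3.20 in NC against 3.43 to 4.98 in 0 h p.r. A mean without Phex was not computed. The means of the adipocyte list and of the bone and cartilage list (Phex included) thus lay apart between the groups, as Vegfa, Vegfb, Vegfc and Nrp1 did. The part of these lists in those differences was not tested. Skeletal muscle markers ranged more widely, 7.53 to 8.98 in NC and 6.07 to 10.97 in 0 h p.r., with 0 of 10 called in limma or voom and 1 at an unadjusted p under 0.05 (Myh7 at -3.42 and Actn3 at 1.76 the largest differences). The mean levels of macrophage markers (0 of 8 called in limma or voom, 2 at an unadjusted p under 0.05, Cd163 at -1.09 and Mrc1 at -0.61) and of erythroid markers (0 of 4, 0 unadjusted, Alas2 at -0.44 and Hbb at -0.35) overlapped between groups.

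Over the whole set the 10 genes did not move one way. None of them passed both thresholds of the study's methods, an adjusted p under 0.05 and a fold of at least 2, in limma (Benjamini-Hochberg adjustment over 13863 genes), against 2.7% of all tested genes. With limma's voom on reads recovered from the FPKM steps the count was also 0. At an adjusted p under 0.05 and any fold, limma called 3 of the 10, against 5.72% of tested genes, voom called 1 of the 10, and 0 to 2 were called in limma as each library was left out. Vegfc rose (1 of 10, against 3.49% of genes called higher), and Vegfb and Nrp1 fell (2 of 10, against 2.23% called lower). At an unadjusted p under 0.05 the genes were Vegfa, Vegfb, Vegfc, Nrp1 and Tek, 5 of 10 against 22.6% of tested genes. The groups did not overlap for 4 of 10, against 15.6%: Vegfa and Vegfc were higher (8.15% of all genes lay apart in this direction) and Vegfb and Nrp1 were lower (7.47%). The median log2 fold change of the 10 genes was -0.17, with 4 higher and 6 lower, against -0.0014 over all tested genes.

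**Figure D1:**
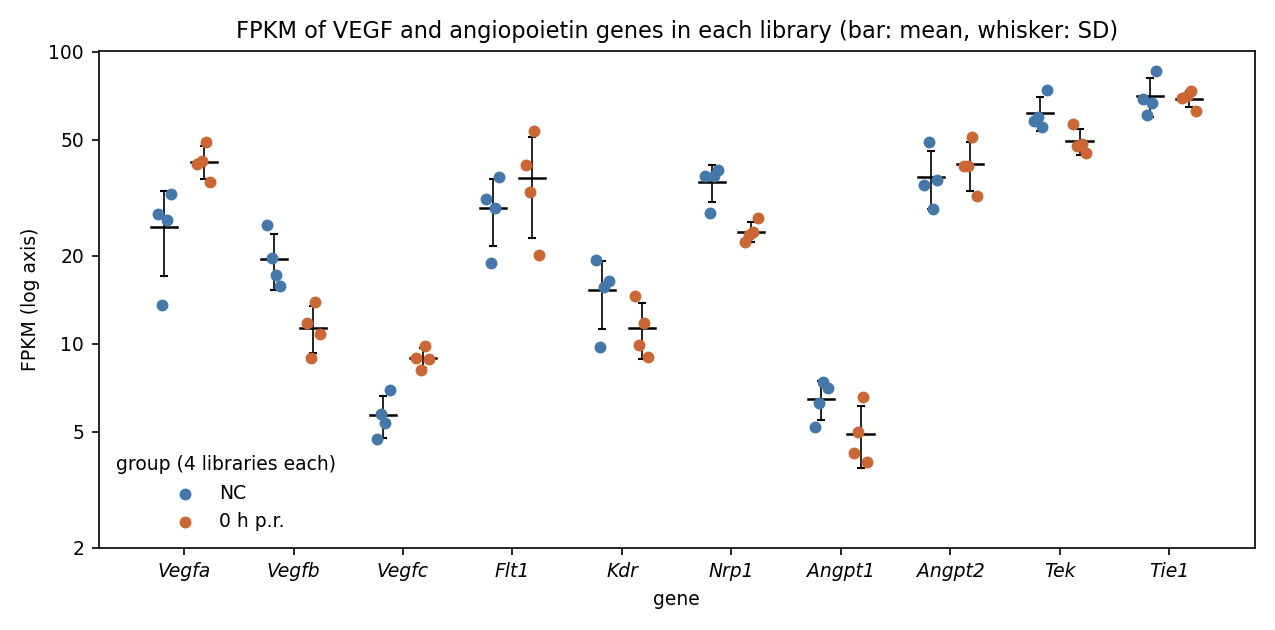
FPKM on a log axis of each of the 10 genes in each library, NC in blue and 0 h p.r. in orange, with bars at the mean and whiskers of 1 SD (n = 4 libraries a group). The groups lie apart for Vegfa, Vegfb, Vegfc and Nrp1 and overlap for the other 6 genes.

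Vegfa encodes the main ligand of Kdr, and its transcription and mRNA stability are known to respond to low oxygen and to exercise in muscle. Vegfa measured 27.9, 13.6, 26.5 and 32.6 FPKM in NC replicates 1 to 4, and 41.4, 42.1, 49.0 and 35.9 FPKM in 0 h p.r. replicates 1 to 4. Every running library lay above every control and NC replicate 2 stood far below the other controls. The mean went from 25.2 ± 8.14 to 42.1 ± 5.41 FPKM (SD, n = 4). On the log2(FPKM + 0.5) scale the difference was 0.79 ± 0.25 (SE; 95% interval 0.23 to 1.35), a fold of 1.73 (1.17 to 2.55). It did not pass the adjustment in limma (adjusted p = 0.0977). Without NC replicate 2 the difference was 0.53 and the adjusted p was 0.0595. The libraries held 477 to 2711 recovered reads of Vegfa, so counting error was small beside the spread within NC, where the highest library was 2.40-fold the lowest (1.37-fold in 0 h p.r.).

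Vegfc, a ligand of Flt4 (VEGFR3) known above all for lymphatic growth, was the lowest of the 10 genes in NC. Its levels were 4.73, 5.73, 5.34 and 6.94 FPKM in NC, and 8.97, 8.13, 9.85 and 8.86 FPKM in 0 h p.r. The groups did not overlap, and the running libraries sat close together. The mean rose from 5.69 ± 0.933 to 8.95 ± 0.708 FPKM, a log2 difference of 0.62 ± 0.14 (SE; 0.31 to 0.93), or 1.54-fold (limma, adjusted p = 0.0363). Reads of Vegfc numbered 121 to 341 a library. As single libraries were omitted in turn, the adjusted p ranged from 0.0338 to 0.107 and the call was kept in 2 of 8 fits, those lacking NC replicate 4 or 0 h p.r. replicate 4. Vegfc was not called in voom (adjusted p = 0.0997).

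Vegfb binds Flt1 but not Kdr and is best known from heart, muscle and fat. Vegfb stood at 25.5, 19.6, 17.2 and 15.8 FPKM in NC and at 11.7, 8.95, 13.9 and 10.8 FPKM in 0 h p.r. Here the order was the opposite of that for Vegfa and Vegfc, with every running library below every control. The mean fell from 19.5 ± 4.28 to 11.4 ± 2.08 FPKM, a log2 difference of -0.75 ± 0.18 (SE; -1.16 to -0.34; limma, adjusted p = 0.0461), so that NC was 1.68-fold higher. Between 279 and 810 reads were recovered a library. The adipocyte markers named above were lower in the same libraries, and their part in this difference was not tested. With any 1 of the 8 libraries left out the direction was the same and the adjusted p lay between 0.0548 and 0.132.

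Neither Flt1 nor Kdr, the VEGF receptor kinases among the 10 genes, passed the test. Flt1 measured 31.2, 19.0, 29.3 and 37.2 FPKM in NC and 41.0, 33.1, 53.5 and 20.2 FPKM in 0 h p.r. The running libraries held both the highest value and nearly the lowest, with a 2.65-fold range, and the groups overlapped. The log2 difference was 0.29 ± 0.30 (SE; -0.39 to 0.97; adjusted p = 0.635), and it ranged from 0.09 to 0.55 as single libraries were left out.

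Kdr measured 19.3, 9.79, 15.6 and 16.4 FPKM in NC and 14.6, 9.89, 11.8 and 9.01 FPKM in 0 h p.r. In 3 of the NC libraries it was above all 4 running libraries, and NC replicate 2 lay among them. Mean levels were 15.3 ± 3.998 and 11.3 ± 2.46 FPKM, and the log2 difference was -0.40 ± 0.22 (SE; -0.90 to 0.10; adjusted p = 0.332). Without NC replicate 2 it was -0.59 with an adjusted p of 0.0886. The 614 to 2178 reads a library leave little counting error in these values.

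Nrp1, the co-receptor, passed the test by a small margin, which the 4 receptor kinases among the 10 genes (Flt1, Kdr, Tek and Tie1) did not. Its levels were 37.6, 28.1, 37.6 and 39.5 FPKM in NC and 22.2, 23.6, 24.2 and 27.0 FPKM in 0 h p.r. All running libraries lay below all controls, of which NC replicate 2 was nearest to them. The mean fell from 35.7 ± 5.16 to 24.2 ± 1.99 FPKM, a log2 difference of -0.54 ± 0.13 (SE; -0.84 to -0.24; limma, adjusted p = 0.0482), with NC 1.46-fold higher. Without NC replicate 2 the difference was -0.65 with an adjusted p of 0.0134, and over all 8 such fits the adjusted p reached 0.139 and was under 0.05 in 2. The call was also lost in voom (adjusted p = 0.123), with the endothelial covariate (0.0547), with no level filter (0.0510) and with quantile (0.0535) or median-ratio scaling (0.0512). Nrp1 had 1554 to 3734 reads a library.

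**Figure D2:**
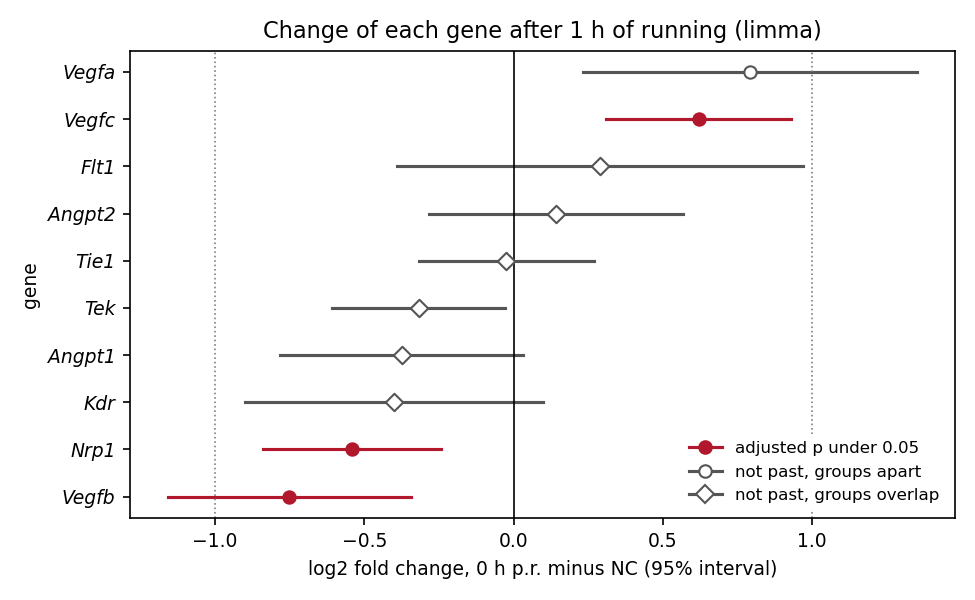
Log2 fold change (0 h p.r. minus NC) of each gene in limma with its 95% interval; dotted lines mark a fold of 2 and marker shapes show whether the groups overlap. Vegfc lies above 0 and Nrp1 and Vegfb below it with an adjusted p under 0.05, and no estimate reaches a fold of 2.

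None of the 4 angiopoietin and Tie genes passed the test at an adjusted p under 0.05 in limma or voom, and 1 of them (Tek) had an unadjusted p under 0.05. Angpt1 measured 5.18, 6.25, 7.42 and 7.04 FPKM in NC and 4.22, 4.98, 6.56 and 3.92 FPKM in 0 h p.r. Of the running libraries 3 lay below every control and replicate 3 lay among the controls. The log2 difference was -0.38 ± 0.18 (SE; -0.78 to 0.03; adjusted p = 0.261). Angpt1 was also the least deeply covered of the 10, with 106 to 206 reads a library.

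Angpt2 was the third of the 10 genes by mean level in NC, although it was above Nrp1, the next, in only 1 of the 4 libraries (replicate 2). Angpt2 measured 35.02, 49.1, 29.0 and 36.5 FPKM in NC and 40.6, 40.7, 51.3 and 32.1 FPKM in 0 h p.r., and the groups overlapped over most of their range. The log2 difference was 0.14 ± 0.19 (SE; -0.28 to 0.57; adjusted p = 0.721), with an interval inside a fold of 2 in either direction.

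Tek, the receptor of both angiopoietins, measured 57.9, 60.0, 55.5 and 74.1 FPKM in NC and 56.8, 47.7, 48.2 and 45.1 FPKM in 0 h p.r. As for Angpt1, 3 running libraries lay below every control, here with replicate 1 among the controls. The means were 61.9 ± 8.36 and 49.5 ± 5.09 FPKM, and the log2 difference of -0.32 ± 0.13 (SE; -0.61 to -0.03) had a p of 0.0354 before and 0.184 after adjustment in limma.

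Tie1 was the highest of the 10 genes in both groups. It measured 69.1, 60.8, 66.7 and 86.3 FPKM in NC and 69.4, 70.8, 73.3 and 62.8 FPKM in 0 h p.r. The running libraries all lay within the range of the controls. The log2 difference was -0.02 ± 0.13 (SE; adjusted p = 0.941), with a 95% interval of -0.32 to 0.27.

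In order of mean level, the NC tendons had Tie1, Tek, Angpt2, Nrp1, Flt1, Vegfa, Vegfb, Kdr, Angpt1 and Vegfc. Among neighbours in that order, only Tek and Angpt2 (61.9 against 37.4 FPKM) and Kdr and Angpt1 (15.3 against 6.47 FPKM) had ranges that did not overlap. After running the order was Tie1, Tek, Vegfa, Angpt2, Flt1, Nrp1, Vegfb, Kdr, Vegfc and Angpt1. Neighbours with separate ranges were then Tie1 and Tek (69.1 against 49.5 FPKM), Nrp1 and Vegfb (24.2 against 11.4 FPKM) and Vegfc and Angpt1 (8.95 against 4.92 FPKM). Among the tested genes Tie1 stood at percentile 93.0 in NC and Tek at 92.0, while Vegfc stood at 39.1 and Angpt1 at 42.9. Vegfa went from percentile 79.6 to 87.1 and Vegfb from 74.0 to 58.7.

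Ratios within a library do not depend on how libraries were scaled, and 8 of them, picked after the levels were seen, are given as a description without a test. Vegfa over Vegfb was 1.10, 0.692, 1.54 and 2.06 in NC and 3.52, 4.71, 3.52 and 3.32 in 0 h p.r., a mean of 1.35 ± 0.589 against 3.77 ± 0.633. The groups were apart, and in NC replicate 2 Vegfb was the more abundant of the pair. Vegfc over Vegfb was 0.185, 0.292, 0.310 and 0.439 in NC and 0.763, 0.908, 0.707 and 0.822 in 0 h p.r. In every running library both Vegfa and Vegfc were thus higher relative to Vegfb than in any control. These separations follow from the levels and are no further result. In the running libraries Vegfa and Vegfc already lay above, and Vegfb below, every control. Vegfa over its receptor Kdr was 1.44, 1.39, 1.70 and 1.99 in NC and 2.84, 4.26, 4.16 and 3.98 in 0 h p.r. This ratio separated the groups although Kdr alone did not, and NC replicate 2, low in both genes, was no longer far from the other controls.

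The Tek over Tie1 ratio was 0.838, 0.987, 0.832 and 0.859 in NC and 0.819, 0.673, 0.658 and 0.719 in 0 h p.r., so that the Tie receptors also lay apart, though by little at the nearest pair (0.832 and 0.819). Angpt2 over Angpt1 averaged 5.93 ± 1.74 in controls and 8.45 ± 0.808 after running (SD, n = 4), and the groups overlapped by 1 library each, NC replicate 2 at 7.86 and 0 h p.r. replicate 3 at 7.81. Flt1 over Kdr was 1.93 ± 0.272 and 3.24 ± 0.981, again with overlap at 0 h p.r. replicate 4 (2.24). Vegfa over Vegfc (4.48 ± 1.503 and 4.71 ± 0.499) and Nrp1 over Kdr (2.41 ± 0.378 and 2.24 ± 0.613) overlapped.

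**Figure D3:**
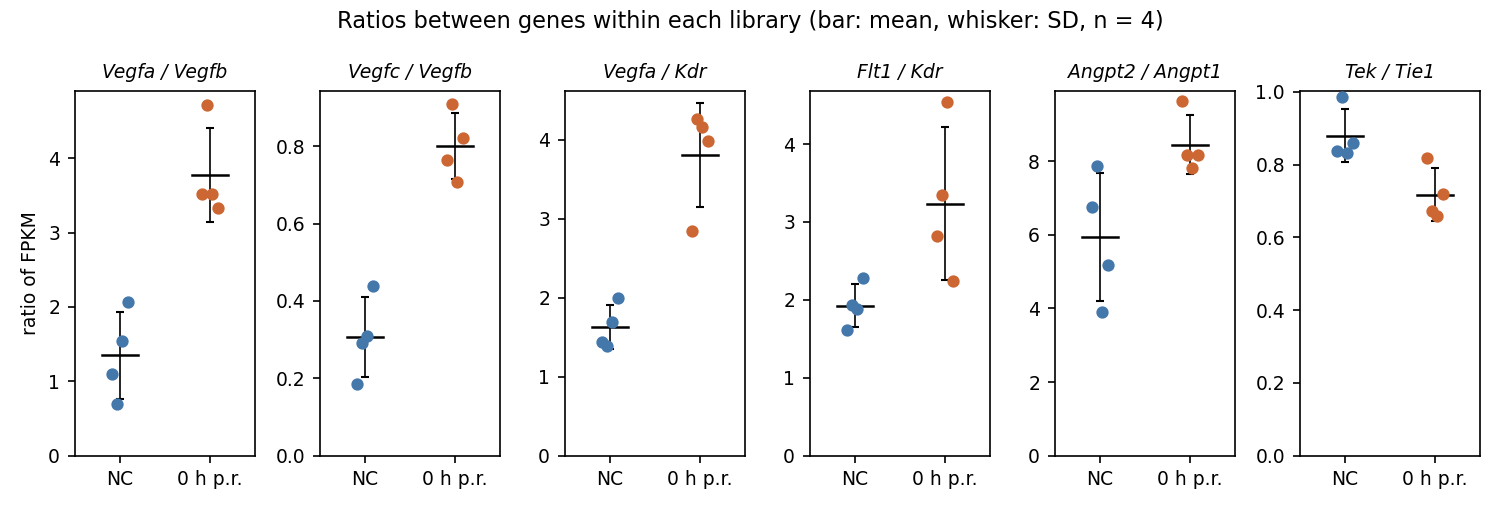
Ratio of the FPKM of gene pairs within each library, axes starting at 0, with bars at the mean and whiskers of 1 SD (n = 4 libraries a group). Vegfa over Vegfb, Vegfc over Vegfb, Vegfa over Kdr and Tek over Tie1 separate the groups, while Flt1 over Kdr and Angpt2 over Angpt1 overlap. The separations of the ratios over Vegfb follow from the levels of each gene.

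Most of these genes are expressed by vessels, so they were set against markers of endothelium. Of 12 tested markers (of 14 listed), 1 was called at an adjusted p under 0.05, against 5.72% of all tested genes, and 11 did not pass. Egfl7, a secreted endothelial protein, rose from 57.5 ± 7.87 to 97.2 ± 14.7 FPKM (log2 difference 0.75, limma, adjusted p = 0.0270, kept in 3 of 8 fits without 1 library and not in voom, adjusted p = 0.0595). The mean log2 level over the markers was 6.20 to 6.45 in NC and 6.05 to 6.504 in 0 h p.r., and their summed level was 1066 to 1280 and 915 to 1285 FPKM. Of the 12, 3 were higher and 9 lower after running, with a median log2 fold change of -0.06. Plvap, a protein of endothelial fenestrae, was at 319 ± 29.9 FPKM in NC and 230 ± 41.1 FPKM in 0 h p.r., with groups apart (-0.49, adjusted p = 0.112), and Sox18 was at -0.49 (adjusted p = 0.307). Cdh5, the adhesion protein of endothelial junctions, stood at 91.5 ± 8.54 and 90.1 ± 18.1 FPKM. Relative to the marker mean of the same library, on a log2 scale, Vegfa was 0.86 and Vegfc 0.69 higher after running, and the groups stayed apart. Vegfb was lower by 0.69 and also apart. Tek was lower by 0.25 on this scale, with its groups now apart, -0.45 to -0.23 in NC and -0.90 to -0.52 in 0 h p.r. For Nrp1 the difference of -0.48 came with an overlap, 0 h p.r. replicate 4 (-1.27) lying above NC replicate 2 (-1.52). With the marker mean as a covariate in limma, Vegfc kept its call (0.66, adjusted p = 0.0309), while Vegfb (-0.71, adjusted p = 0.0603) and Nrp1 (-0.56, adjusted p = 0.0547) did not.

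Lymphatic endothelial markers gave 0 calls among 7 tested in limma (0 at an unadjusted p under 0.05 and 0 in voom), with Pdpn at 0.36 (adjusted p = 0.260) and Prox1 at -0.31 (adjusted p = 0.537) the largest log2 differences. Flt4, the Vegfc receptor and one of these 7, was at 12.2 ± 2.96 FPKM in NC and 12.2 ± 2.56 FPKM in 0 h p.r. Mural cell markers gave 1 call of 11 at an adjusted p under 0.05, against 5.72% of all tested genes. Kcnj8, a potassium channel subunit of pericytes, fell from 10.98 ± 3.74 to 5.64 ± 0.232 FPKM (-0.85, adjusted p = 0.0476, kept in 2 of 8 fits without 1 library). The mean log2 level of the mural list overlapped, 6.43 to 6.51 in NC and 6.29 to 6.66 in 0 h p.r.

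Of 11 other ligands, receptors and co-receptors of the pathway, 10 were tested and 1 passed both thresholds, against 2.7% of all tested genes. Angpt4, a further Tek ligand, fell from 13.6 ± 4.51 to 3.28 ± 1.81 FPKM (-1.95 ± 0.31, SE; limma, adjusted p = 0.0104). The groups lay apart, and the adjusted p stayed under 0.05 in all 8 fits that left out 1 library. Plxnd1, a semaphorin receptor that pairs with neuropilins, was next at -0.65 (adjusted p = 0.0568). Pgf, another Flt1 ligand, was at 5.66 ± 2.05 and 5.44 ± 1.04 FPKM, and Nrp2, the co-receptor for Vegfc, at 10.9 ± 2.998 and 13.5 ± 0.896 FPKM. The list's median log2 fold change was 0.02.

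Of 28 tested genes of receptor signal transduction, 1 was called at an adjusted p under 0.05, against 5.72% of all tested genes. Gab1, a docking adaptor downstream of Kdr and other receptors, fell from 11.9 ± 1.47 to 7.76 ± 0.906 FPKM (-0.58, adjusted p = 0.0395, kept in 2 of 8 fits without 1 library and not in voom, adjusted p = 0.0806). The other 27 did not pass and the median was 0.10. Nos3, the endothelial nitric oxide synthase, was at 20.7 ± 4.44 and 35.4 ± 14.6 FPKM (adjusted p = 0.183).

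Of 12 genes known to be induced by VEGF or to mark sprouting tip cells, 4 rose and passed both thresholds, against 2.7% of all tested genes, and 8 did not pass (median 0.40, with 8 higher and 4 lower). Nr4a1, an immediate-early nuclear receptor, rose from 21.9 ± 10.8 to 231 ± 75.9 FPKM (3.45, adjusted p = 0.00205), and Adamts1, a matrix protease that can bind VEGF, from 15.2 ± 9.95 to 127 ± 33.8 FPKM (3.15, adjusted p = 0.00329). Plaur, the urokinase receptor, rose from 9.12 ± 2.34 to 44.2 ± 15.6 FPKM (2.17, adjusted p = 0.00518) and Egr3, an immediate-early factor, from 3.03 ± 1.40 to 9.25 ± 3.47 FPKM (1.49, adjusted p = 0.0384, kept in 2 of 8 fits without 1 library and not in voom, adjusted p = 0.0771). These 4 are induced by many stimuli. The tip cell genes Dll4 (0.79, adjusted p = 0.0989) and Esm1 (-1.15, adjusted p = 0.178) did not pass. Of 7 Notch genes of the vessel wall (median -0.09, with 3 higher and 4 lower), 1 passed both thresholds, against 2.7% of all tested genes. Hes1, a Notch target also induced by other signals, rose from 25.04 ± 3.15 to 57.5 ± 13.7 FPKM (1.16, adjusted p = 0.00830).

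Among 14 regulators of Vegfa, 3 passed both thresholds and all 3 rose, against 2.7% of all tested genes. Zfp36 (tristetraprolin), which promotes decay of AU-rich mRNAs including that of Vegfa, rose from 50.4 ± 5.81 to 217 ± 48.6 FPKM (2.08, adjusted p = 0.000886). Hif1a, the oxygen-regulated subunit of the factor that drives Vegfa in hypoxia, rose from 35.03 ± 3.20 to 76.8 ± 11.3 FPKM (1.11, adjusted p = 0.00343). Egln3, a prolyl hydroxylase that marks HIF proteins for decay and is itself a HIF target, rose from 8.75 ± 2.30 to 20.9 ± 4.69 FPKM (1.22, adjusted p = 0.0160, or 0.0536 without 0 h p.r. replicate 3). The direction was positive for 12 of the 14, with a median of 0.32. The list mixes genes that raise Vegfa, such as Hif1a, with genes that lower it, such as Zfp36. A shared sign therefore gives no direction for Vegfa. Of 18 tested hypoxia targets, 4 rose past both thresholds, of which Car9 is not counted. Car9 (1.43, adjusted p = 0.0304, kept in 3 of 8 fits without 1 library) reached the level filter through the running libraries. Its controls lay near the floor (0.757 ± 0.364 FPKM, the lowest at 0.408, under the filter's 0.5 FPKM). The other 3 (again against 2.7%) were Bhlhe40 (2.25, adjusted p = 0.000947), Slc2a1 (1.73, adjusted p = 0.00227) and Hk2 (1.69, adjusted p = 0.0441, kept in 1 of 8 fits). Bhlhe40 is a transcriptional repressor, Slc2a1 the glucose transporter GLUT1, Car9 a carbonic anhydrase and Hk2 a hexokinase. With Car9 included, the count of 4 became 2 in voom, with Car9 (adjusted p = 0.0627) and Hk2 (adjusted p = 0.0716) no longer called. That count was 2 to 4 as each library was left out (2 when that was NC replicate 1, 2 or 4 or 0 h p.r. replicate 2 or 3). The other 14 of the 18 did not pass, and the list's median (Car9 included) was 0.45 with 15 of 18 positive.

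Of 9 tested inhibitors of angiogenesis (median 0.06), 1 passed both thresholds, against the same 2.7%. Thbs1, thrombospondin 1, rose from 57.6 ± 17.2 to 175 ± 56.4 FPKM (1.59, adjusted p = 0.0159, or 0.0567 when NC replicate 1 was left out and 0.0520 when 0 h p.r. replicate 2 was). Tnmd, an inhibitor made by tenocytes themselves, was at 224 ± 106 and 177 ± 61.7 FPKM (adjusted p = 0.768).

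**Figure D4:**
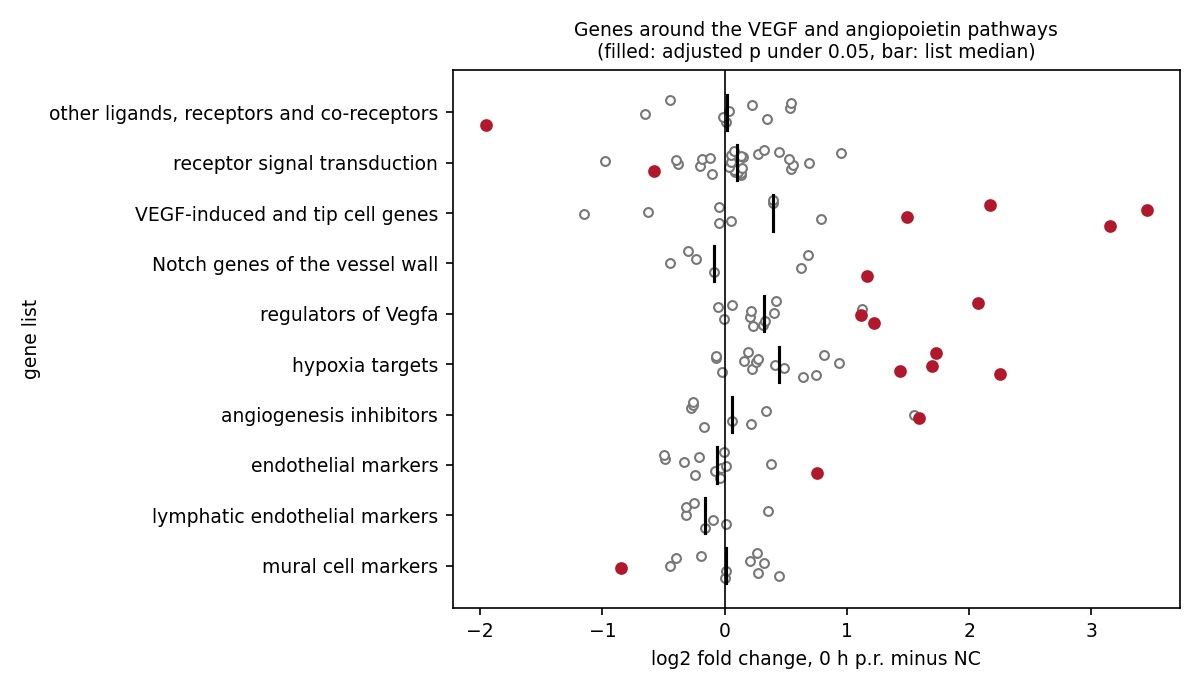
Log2 fold change (0 h p.r. minus NC) of every tested gene of 10 lists around the VEGF and angiopoietin pathways, filled where the adjusted p was under 0.05, with a bar at the list's median. Calls among VEGF-induced genes, regulators of Vegfa and hypoxia targets all lie to the right of 0, and the lowest point is Angpt4 at -1.95.

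The patterns most like those of 4 of the genes over the 8 libraries were sought among 13055 tested protein-coding genes, as a description that shares the libraries and the group difference. Nearest to Vegfa were Phrf1 (r = 0.986), Lats2 (0.984) and Zdhhc5 (0.983), and nearest to Kdr were Lpin1 (0.990), Epb41 (0.958) and Aars2 (0.958). Nearest to Tek were AABR07068351.1 (0.976), Ptpre (0.963) and Grik4 (0.961), and nearest to Angpt2 were Upp1 (0.976), Ecscr (0.965) and Psen2 (0.963). Ecscr is an endothelial surface protein.

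**Figure D5:**
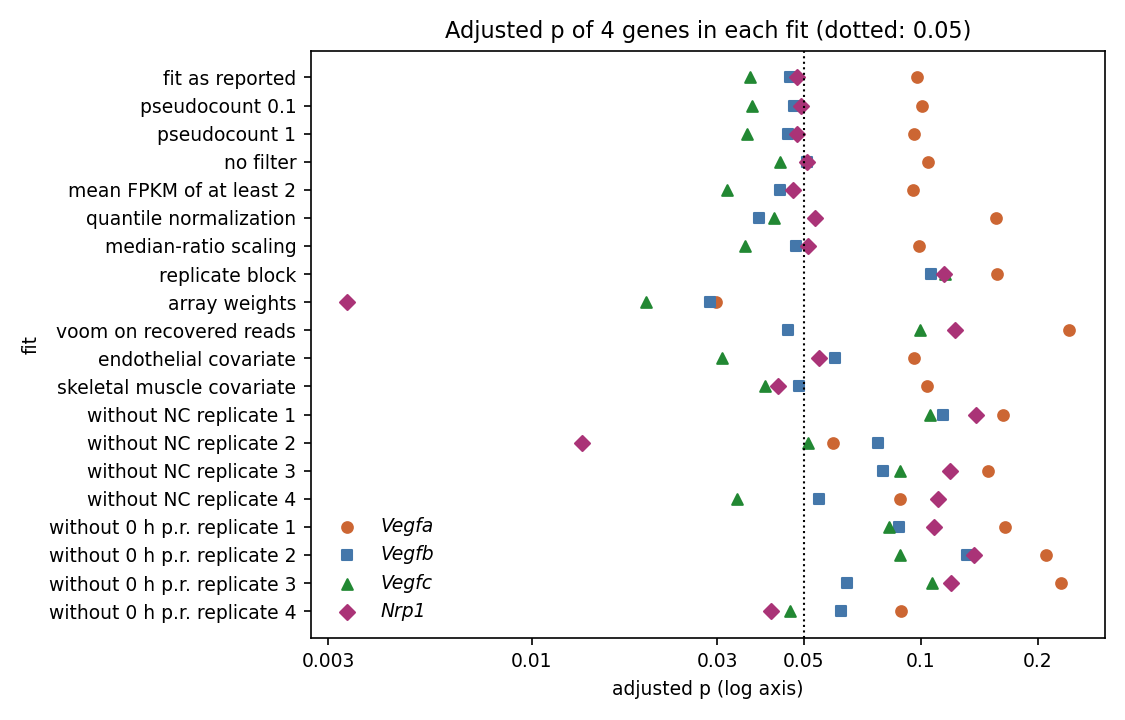
Adjusted p (log axis) of Vegfa, Vegfb, Vegfc and Nrp1 in the fit as reported and in 19 other fits; the dotted line is at 0.05. Vegfc lies left of the line in 11 of the 19, Vegfb in 8, Nrp1 in 7 and Vegfa in 1.

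The calls of the 3 genes lay near the threshold. Over 19 other fits the adjusted p of Vegfc ranged from 0.0196 to 0.115 and was under 0.05 in 11, that of Vegfb from 0.0287 to 0.132 (8 fits) and that of Nrp1 from 0.00335 to 0.139 (7 fits). The log2 difference kept its sign in all of these fits, 0.54 to 0.71 for Vegfc, -0.87 to -0.62 for Vegfb and -0.65 to -0.49 for Nrp1. In voom Vegfb kept its call (adjusted p = 0.0454) while Vegfc (0.0997) and Nrp1 (0.123) did not. With the mean of the skeletal muscle markers as a covariate, all 3 kept their calls (Vegfb 0.0486, Vegfc 0.0398 and Nrp1 0.0430, adjusted p). Vegfa lay between 0.53 and 0.94 and passed in 1 fit (array weights, adjusted p = 0.0298), as did Kdr (array weights, adjusted p = 0.0418). Flt1, Angpt1, Angpt2, Tek and Tie1 passed in 0 of 19.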

How the data were processed

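RNA of 8 rat tendon libraries, 4 a group, was compared, with groups and replicate numbers taken from the sample titles. Per the labels and methods, the authors aligned stranded reads with HISAT2 2.1.0 to Rnor_6.0, counted genes with featureCounts 1.6.3 and deposited FPKM values for 15590 genes. The same deposited table holds the authors' DESeq2 1.30.1 comparison (log2 fold changes, p-values), which was not used. FPKM is not a count, so log2(FPKM + 0.5) was fitted with limma 3.58.1 in R 4.3.3 (lmFit, eBayes with trend, two-sided, no covariate) on the 13863 genes that reached 0.5 FPKM in 4 or more of the 8 libraries (1727 were left out). Adjusted p-values are Benjamini-Hochberg over all tested genes, and folds on this scale understate the change of low genes. Whole reads, recovered from the FPKM steps for 15590 of 15590 genes, gave the depth and a voom fit. Their precision covers counting error only.

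The fit was tested on simulated data for NC against 0 h p.r. (13858 genes): 41.2% of 97 genes changed by a fold of 2 and 82.7% of 98 changed by a fold of 4 were called, and 7.63% of 131 calls were false. The lowest chi-square per gene between libraries of a group was 27.2 over 12 pairs, so none was a near copy. The genes, the 16 other lists and the promoter motifs were chosen with earlier results of these data known. Flt4 and Tnmd each stand in 2 lists. Named were the 10 genes, up to 4 called genes with the smallest adjusted p of each list or else the 2 largest differences, the 3 nearest genes of Vegfa, Kdr, Tek and Angpt2, and others chosen after their values were seen (Flt4, Pgf, Nrp2, Nos3, Tnmd, Dll4, Esm1, Plxnd1, Cdh5, Plvap, Sox18, Col1a1). Alternatives were pseudocounts of 0.1 and 1, no filter, a filter on mean FPKM (2 or more), median-ratio and quantile scaling, the replicate block, array weights, voom, endothelial and muscle covariates and leaving out each library. Analyses of tables used Python 3.11.15. Promoters came from RefSeq (GRCr8), and no coordinates of the expression table's build were used here.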

Additional observations from a re-analysis of the deposited data

Results flagged for a closer look

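Gaps within a group were examined with Dixon's criterion in 68 groups of 4 libraries (the levels of the 10 genes, the list means and the 8 ratios), and 3 exceeded it. Chance alone marks about 1 in 20 such groups. Nrp1 in NC replicate 2, at 28.1 FPKM, stood below the other 3 controls by 0.833 of the group's range. The mean log2 level of the other ligands, receptors and co-receptors was 3.27 in NC replicate 2, with a gap of 0.880 of the range below the other controls. The ratio of Vegfa over Vegfb in 0 h p.r. replicate 2, at 4.71, lay above the other 3 running libraries by 0.857 of the range.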

How the results depend on the processing

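In limma, 0 of the 10 genes passed both thresholds in the fit as reported and in each of the 19 alternatives. The 3 genes at an adjusted p under 0.05 became 1 with no filter, 1 with voom on recovered reads, 1 with the endothelial covariate, 2 with quantile normalization, 2 with median-ratio scaling, 5 with array weights and 0 to 2 as each library was left out. With the replicate block, a paired fit by replicate number, 0 of the 10 genes passed (Vegfb 0.106, Vegfc 0.115, Nrp1 0.115), and the counts over all genes went from 374 to 212 past both thresholds and from 793 to 235 at any fold. Same-numbered libraries did not deviate together (r = -0.141, -0.0708, 0.0717 and 0.00562). These values cannot show whether such libraries were handled together, so whether the numbers pair them was not settled. Over all genes, 793 became 2069 with array weights, 446 with voom and 247 to 1164 as each library was left out, when 374 became 191 to 504. The sign turned for Tie1 only, to 0.011 with the endothelial covariate and, as each library was left out, over a range of -0.092 to 0.075 (above 0 when the library left out was replicate 4 of either group). Leaving out a library also lowers the number of samples, and other causes were not tested. No scaling moved the median of all genes by more than 0.1 (largest shift -0.087, voom). Angpt1 was the least deeply covered of the 10 genes (106 to 206 reads a library), and counting error was not compared between genes.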
